A study of Mus musculus with 8 samples.

Results

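The NRF2 targets and glutathione enzymes are 42 genes chosen by name for their place in the antioxidant response. They comprise NRF2 itself (Nfe2l2) and its repressor Keap1, 8 reductases and detoxifying enzymes, 4 genes of glutathione synthesis and recycling, 3 of the thioredoxin system, the superoxide dismutases and catalase, the peroxiredoxins, the glutathione peroxidases and transferases, and 2 ferritin chains. Each gene was read from its single-gene probe set with the highest mean, which gave 40 measured members among 18820 genes tested. Prdx5 and Prdx6, both peroxiredoxins, had no such probe set and were not analysed here.

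RNA came from white adipose tissue (depot not given) of 8 male mice on a mixed C57BL/6N and C57BL/6J background, all kept for 5 weeks on D12492, a high fat diet from Research Diets. The controls were 4 mice labelled wildtype (WT). The other 4 were Sel1l-/- mice, made by crossing Sel1L flox/flox mice with mice carrying Cre under the adiponectin promoter, so the deletion is directed to adipocytes and not to the other cells of the tissue. Their ages, and whether the controls carried the floxed alleles or Cre, are not given in the sources used here. SEL1L is the adapter of the HRD1 ubiquitin ligase in ER-associated degradation, which clears misfolded proteins from the endoplasmic reticulum. The comparison asks how the antioxidant genes of adipose tissue stand when adipocytes lack this adapter. In whole tissue, a lower value from fewer cells of a type and one from less RNA per cell cannot be told apart. Each array was made from a separately coded mouse, and p-values measure the spread between these mice.

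NRF2 is a transcription factor that the adapter KEAP1 holds for ubiquitination and degradation. When electrophiles or oxidants modify KEAP1 cysteines, or when the autophagy receptor p62 occupies KEAP1, NRF2 accumulates, pairs with a small MAF protein and binds antioxidant response elements. Its classical targets make glutathione, reduce quinones, carbonyls and disulfides, and conjugate electrophiles. In fat tissue these enzymes also handle the aldehydes that lipid peroxidation releases.

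The expression values are log2 intensities as RMA gives them, so a difference of 1 is a doubling of signal. The median signal of an array was between 6.05 and 6.08 for WT mice and between 6.10 and 6.14 for Sel1l-/- mice, and the arrays correlated at 0.982 to 0.994 with none identical. Sel1l itself was lower by 0.79 on the log2 scale in Sel1l-/- mice (limma, adjusted p = 0.0109), with no overlap between groups. The adipocyte markers Adipoq and Plin1 had WT means of 12.72 and 12.70, among the highest on the arrays, whereas skeletal muscle and epididymal marker lists averaged 4.90 to 5.09 and 4.25 to 4.37 per array, against a lower quartile of all probe sets of 4.33 to 4.37. Over all genes the median difference was -0.00, and -0.05 after centring the arrays.

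The start-site windows of 4 targets whose WT and Sel1l-/- arrays did not overlap, Srxn1, Cbr3, Gclm and Nqo1, are shown because an antioxidant response element near the start site is where NRF2 could act. Each runs from 250 bases before to 50 bases after the RefSeq start (assembly GRCm38.p6), 5′ to 3′ in the direction of the gene. They lie at chr2:152105274-152105573 on the plus strand (Srxn1), chr16:93682969-93683268 on the plus strand (Cbr3), chr3:122245307-122245606 on the plus strand (Gclm) and chr8:107403156-107403455 on the minus strand (Nqo1). Capitals mark matches to the element's core, TGACNNNGC or its variant TGAGNNNGC, on either strand.
Srxn1: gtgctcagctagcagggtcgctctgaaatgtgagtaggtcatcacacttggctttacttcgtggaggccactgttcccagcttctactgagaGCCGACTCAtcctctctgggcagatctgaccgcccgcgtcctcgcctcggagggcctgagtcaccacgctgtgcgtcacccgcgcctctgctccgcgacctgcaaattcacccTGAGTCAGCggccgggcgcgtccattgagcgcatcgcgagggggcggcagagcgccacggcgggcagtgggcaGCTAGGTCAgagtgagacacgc
Cbr3: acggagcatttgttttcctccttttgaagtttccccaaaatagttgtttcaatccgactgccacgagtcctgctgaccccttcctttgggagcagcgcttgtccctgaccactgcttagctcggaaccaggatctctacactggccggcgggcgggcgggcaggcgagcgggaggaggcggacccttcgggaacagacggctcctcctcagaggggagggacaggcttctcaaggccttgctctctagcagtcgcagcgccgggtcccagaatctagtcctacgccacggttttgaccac
Gclm: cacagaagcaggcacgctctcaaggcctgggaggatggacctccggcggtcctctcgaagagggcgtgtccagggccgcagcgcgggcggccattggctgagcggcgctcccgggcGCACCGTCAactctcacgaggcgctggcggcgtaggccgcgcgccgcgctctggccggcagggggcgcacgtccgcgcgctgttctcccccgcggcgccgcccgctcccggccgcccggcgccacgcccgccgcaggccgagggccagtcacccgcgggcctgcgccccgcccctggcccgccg
Nqo1: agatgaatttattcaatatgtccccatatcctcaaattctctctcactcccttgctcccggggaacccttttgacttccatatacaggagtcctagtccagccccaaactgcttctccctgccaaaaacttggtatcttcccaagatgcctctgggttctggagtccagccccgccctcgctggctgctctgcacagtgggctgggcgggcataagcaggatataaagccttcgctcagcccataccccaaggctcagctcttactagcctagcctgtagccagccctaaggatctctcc
Srxn1 held 3 matches, at bases 93 to 101, 206 to 214 and 279 to 287 of the window. The middle one, TGAGTCAGC, overlaps an AP-1 site (TGAGTCA, or TGACTCA on the other strand). Gclm held 1 match, at bases 117 to 125. Cbr3 and Nqo1 held none in these windows, which says only that these letters are not there.

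Of the 40 measured members, 35 had a window in the RefSeq table, and Hmox1, Gclc, Gsr, Gsta4 and Sod3 had none. TGACNNNGC was found for 9 of the 35 (25.7%), namely Nfe2l2, Srxn1, Ugdh, Gclm, Txnrd1, Sod1, Prdx1, Gsta3 and Mgst1. It was found for 15.4% of the 14749 genes on the arrays that had a window. TGAGNNNGC, added after the Srxn1 window had been seen, was found for 4 of the 35 (11.4%, against 21.3%), namely Srxn1, Osgin1, Prdx1 and Gstt1. With either motif the shares were 31.4% and 33%. Members with a match thus include genes with positive and negative differences between genotypes. A match is a description of letters and not a measured binding site.

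Across the 40 members, few genes passed the test. At an adjusted p of 0.05 in limma, 0 were higher and 1 (2.5%), Nqo1, was lower, where 1.04% of all genes tested were higher and 0.685% were lower. With the replicate number as a block, other members passed: 1 was higher (Srxn1) and 2 were lower (Gpx8 and Mgst3), and Nqo1 was not called. Deviations of same-numbered mice correlated at 0.107 to 0.524, and those of different-numbered mice at -0.489 to 0.328. Over all genes, the split of 195 higher and 129 lower became 119 and 154 with the arrays centred on their medians. At an unadjusted p of 0.05, 5 members (12.5%) were higher and 4 (10%) were lower, against 7.15% and 7.85% of all genes. The 4 WT and 4 Sel1l-/- arrays did not overlap for 5 members (12.5%, against 10.3% of all genes), Srxn1, Cbr3 and Gclm being higher and Nqo1 and Gpx8 lower. Differences were positive for 18 members and negative for 22, with a median of -0.03. Most were small. In 27 of the 40 (67.5%) the difference was under 0.25 in size, as it was for 84.2% of all genes, and in 27 the 95% interval lay within a 1.5-fold change (67.5%, against 84.4% of all genes). In 35 members the interval lay within a 2-fold change.

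**Figure D1:**
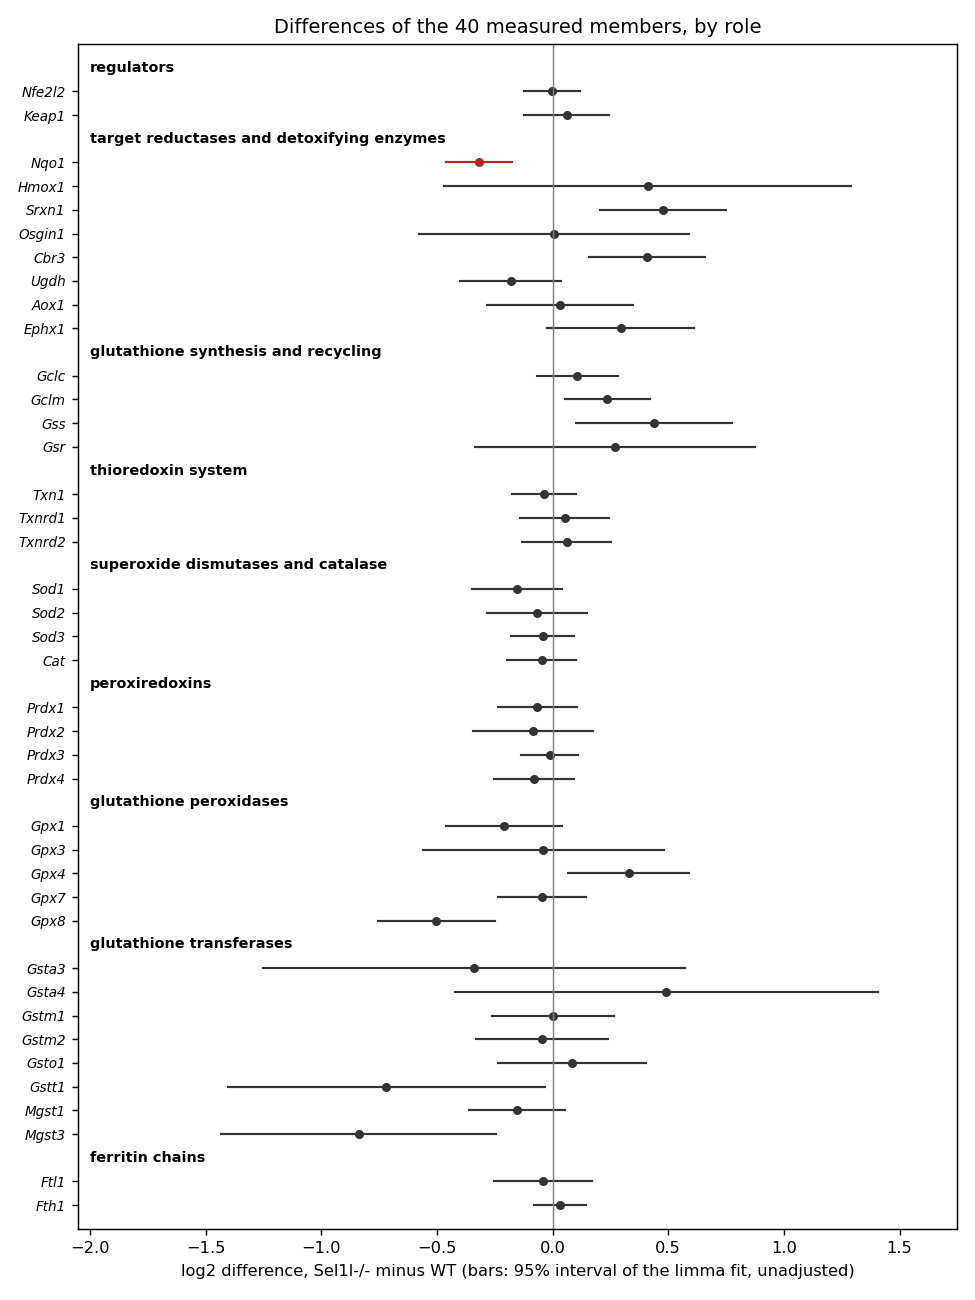
Log2 difference between Sel1l-/- and WT (x axis) for each of the 40 measured members, grouped by role; points are differences of group means (n = 4 arrays each) and bars are unadjusted 95% intervals of the limma fit. Nqo1, in red, is the 1 member past the adjusted threshold at -0.32, and the widest intervals belong to Hmox1, Gsta3 and Gsta4.

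The transcripts of the regulators differed little between genotypes, with narrow intervals. Nfe2l2 transcripts were measured at 11.03, 10.96, 10.96 and 10.91 in WT mice 1 to 4 and at 10.98, 10.91, 10.95 and 11.01 in Sel1l-/- mice 1 to 4. The groups overlapped fully, and the difference was -0.00 ± 0.05 (SE), with a 95% interval of -0.12 to 0.12 (limma, adjusted p = 0.986). Keap1 was at 8.42, 8.34, 8.24 and 8.07 in WT and at 8.35, 8.33, 8.37 and 8.25 in Sel1l-/- mice. Its lowest value was that of WT 4, and the difference was 0.06 ± 0.08 (SE), with an interval of -0.12 to 0.25 (adjusted p = 0.791). NRF2 is controlled chiefly through protein stability, which these arrays do not measure.

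Among the reductases and detoxifying enzymes, 1 gene fell, and the 2 others whose arrays did not overlap, Srxn1 and Cbr3, had positive differences that did not pass the threshold. Nqo1, the NAD(P)H quinone reductase used as a standard readout of NRF2, was at 6.14, 6.36, 6.30 and 6.27 in WT and at 5.97, 5.90, 5.95 and 5.97 in Sel1l-/- mice. Every Sel1l-/- value lay below every WT value. Nqo1 fell from 6.27 ± 0.09 to 5.95 ± 0.03 (SD, n = 4), a difference of -0.32 ± 0.06 (SE) or 1.25-fold (limma, adjusted p = 0.0452). The call was lost with the replicate number as a block (0.0600), in each of the 8 fits without 1 array (0.0513 to 0.146) and with the mouse code's letter or number as a block (0.434 and 0.146). The difference was negative within letter F (-0.34) and within numbers 5, 7 and 9 (-0.25, -0.39 and -0.40). Letter F holds 1 WT array, WT 4, and 2 Sel1l-/- arrays, and number 9 holds 1 array of each group. Letter E holds only WT and G only Sel1l-/- arrays, so the letter block's difference is the one within letter F.

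Srxn1, sulfiredoxin, which repairs over-oxidised peroxiredoxins and is an NRF2 target, was higher in all 4 Sel1l-/- arrays. It was at 8.64, 8.78, 8.64 and 9.13 in WT and at 9.34, 9.20, 9.14 and 9.43 in Sel1l-/- mice. The highest WT value, that of WT 4, came just under the lowest Sel1l-/- value, that of Sel1l-/- 3. The difference was 0.48 ± 0.12 (SE) or 1.39-fold, from 8.80 ± 0.23 to 9.28 ± 0.13 (SD, n = 4), and missed the threshold (limma, adjusted p = 0.102). It passed with the replicate number as a block (0.0331) and without WT 4 (0.0261). Within letter F the difference of Srxn1 was 0.14, and within numbers 5, 7 and 9 it was 0.25, 0.60 and 0.56.

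Cbr3, a carbonyl reductase, was at 5.74, 6.13, 5.93 and 5.93 in WT and at 6.19, 6.35, 6.23 and 6.58 in Sel1l-/- mice. The groups did not overlap, with WT 2 the nearest to the Sel1l-/- values. The difference was 0.41 ± 0.11 (SE), or 1.33-fold (limma, adjusted p = 0.123). Within letter F it was 0.34. Cbr3 and Nqo1 were both dim on the arrays, near the array median, where RMA compresses differences.

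**Figure D2:**
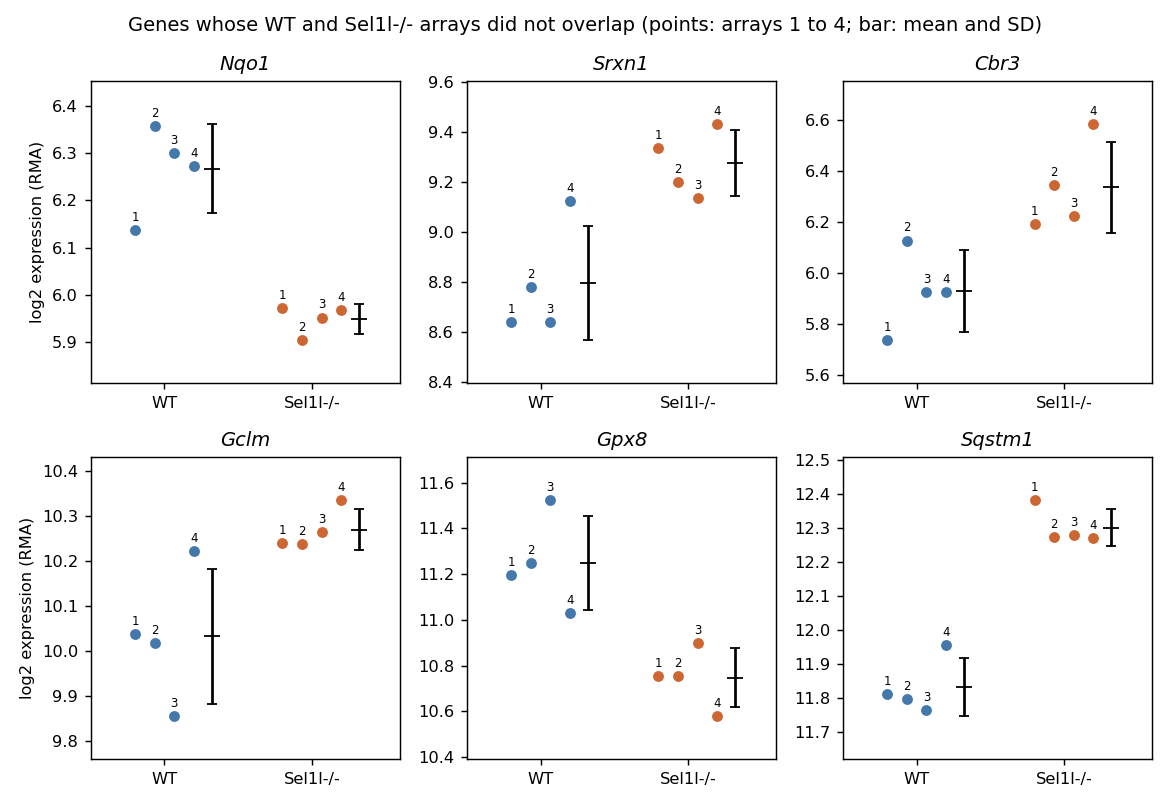
Log2 expression (y axis) in each WT (blue) and Sel1l-/- (orange) array, numbered 1 to 4, for 5 members and Sqstm1, all without overlap between groups; bars are mean and SD. Nqo1 and Gpx8 are lower in all 4 Sel1l-/- arrays and Srxn1, Cbr3, Gclm and Sqstm1 are higher, with limma's adjusted p under 0.05 for Nqo1 and Sqstm1 and not for the other 4.

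Hmox1, heme oxygenase, which degrades heme and is strongly inducible, varied far more between mice than between genotypes. It was at 9.17, 9.91, 9.15 and 10.68 in WT and at 9.64, 10.02, 9.95 and 10.94 in Sel1l-/- mice. The array numbered 4 was the highest in each group and the groups overlapped. The difference was 0.41 ± 0.39 (SE), with an interval of -0.47 to 1.29 (limma, adjusted p = 0.686), and within letter F it was -0.85 for Hmox1. That interval still includes a 2-fold rise of Hmox1.

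Ephx1, the microsomal epoxide hydrolase, was at 10.75, 11.01, 10.97 and 11.42 in WT and at 11.41, 11.34, 11.45 and 11.12 in Sel1l-/- mice. In WT the array numbered 4 was the highest and in Sel1l-/- it was the lowest, and the groups overlapped through these arrays. The difference was 0.29 ± 0.14 (SE), with an interval of -0.02 to 0.61 (limma, adjusted p = 0.378), and it passed the threshold without both arrays numbered 4 (0.0483), a setting chosen after seeing the data. Osgin1, an oxidative-stress-induced growth inhibitor, differed by 0.01 (adjusted p = 0.995), with WT 4 at 8.04 and the other 7 arrays between 6.79 and 7.37. Ugdh, which makes UDP-glucuronate for conjugation, differed by -0.18 (adjusted p = 0.436), and Aox1, aldehyde oxidase, by 0.03 (adjusted p = 0.945). Of the 8 enzymes, 6 had a positive difference and 2 a negative one, or 4 and 4 with the arrays centred on their medians.

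All 4 genes of glutathione synthesis and recycling had a positive difference, and 0 passed the adjusted threshold. Gclm, the modifier subunit of glutamate-cysteine ligase, which carries out the rate-limiting step, was at 10.04, 10.02, 9.86 and 10.22 in WT and at 10.24, 10.24, 10.26 and 10.34 in Sel1l-/- mice. The highest WT value, WT 4, came just under the Sel1l-/- values, which lay close together. The difference was 0.24 ± 0.08 (SE) or 1.18-fold (limma, adjusted p = 0.209), and 0.02 within letter F for Gclm.

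Gclc, the catalytic subunit of the same ligase, was at 9.77, 9.55, 9.66 and 9.58 in WT and at 9.90, 9.74, 9.71 and 9.63 in Sel1l-/- mice. The groups overlapped. Its difference of 0.11 ± 0.08 (SE) had an interval of -0.07 to 0.28 (limma, adjusted p = 0.587), so a rise of the catalytic subunit by over 1.5-fold lay outside the interval.

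Gss, glutathione synthetase, which adds glycine in the last step, was at 8.36, 8.12, 8.31 and 8.80 in WT and at 9.05, 8.64, 8.87 and 8.78 in Sel1l-/- mice. WT 4 alone among the WT arrays reached the Sel1l-/- range. The difference was 0.44 ± 0.15 (SE) or 1.36-fold, from 8.40 ± 0.29 to 8.84 ± 0.17 (SD, n = 4), and missed the threshold (limma, adjusted p = 0.208). Within letter F, whose 1 WT array is WT 4, the difference of Gss was 0.04.

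Gsr, glutathione reductase, which regenerates glutathione from its disulfide, was at 9.77, 10.26, 10.26 and 9.41 in WT and at 10.57, 10.42, 10.28 and 9.51 in Sel1l-/- mice. The array numbered 4 was the lowest in both groups. The difference was 0.27 ± 0.27 (SE), with an interval of -0.34 to 0.87 (limma, adjusted p = 0.705). Averaged over the 4 genes, each array's mean was 9.48 to 9.52 in WT and 9.56 to 9.94 in Sel1l-/-. Their summed level on the log2 scale overlapped, at 11.59 to 11.68 in WT and 11.67 to 12.04 in Sel1l-/-. The sign stayed positive for all 4 with the arrays centred and with each of the 3 blocks. The direction of these 4 genes is a description of a small list, beside 48.8% of all genes with a positive difference.

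**Figure D3:**
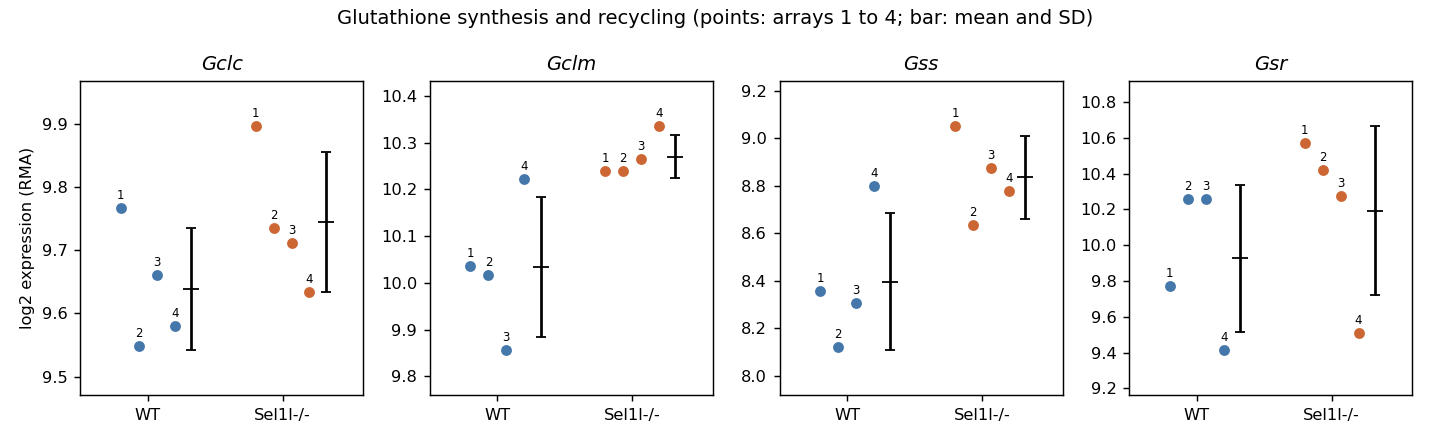
Log2 expression (y axis, a separate range for each gene) of Gclc, Gclm, Gss and Gsr in each WT (blue) and Sel1l-/- (orange) array, numbered 1 to 4; bars are mean and SD. All 4 means are higher in Sel1l-/-, by 0.11, 0.24, 0.44 and 0.27, but only for Gclm do the arrays not overlap, and array 4 is the lowest of both groups for Gsr.

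The thioredoxin system, which reduces protein disulfides with electrons from NADPH, showed no difference past the threshold. Txnrd1, the cytosolic thioredoxin reductase and an NRF2 target, was at 8.43, 8.49, 8.44 and 8.63 in WT and at 8.50, 8.59, 8.38 and 8.72 in Sel1l-/- mice. The groups overlapped, and the difference was 0.05 ± 0.08 (SE), with an interval of -0.14 to 0.24 (limma, adjusted p = 0.837). Thioredoxin itself, Txn1, differed by -0.04 and the mitochondrial reductase Txnrd2 by 0.06 (adjusted p = 0.824 and 0.802).

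Superoxide dismutases and catalase convert superoxide to hydrogen peroxide and this to water, and their transcripts were abundant and steady. The mean of cytosolic Sod1 was 12.55 in WT and 12.39 in Sel1l-/- mice, that of mitochondrial Sod2 11.93 and 11.86, that of extracellular Sod3 11.64 and 11.59, and that of catalase (Cat) 12.68 and 12.63. All 4 differences were negative, between -0.15 and -0.04, and 0 passed the threshold (lowest adjusted p 0.460, for Sod1, in limma). Their intervals reached from -0.35 to 0.15. The 4 signs were not stable, since 2 turned positive with the mouse code's letter as a block.

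Peroxiredoxins, thiol peroxidases that remove much of the cell's hydrogen peroxide and are the substrates of sulfiredoxin, had 4 negative differences and 0 past the threshold. Differences were -0.07 for Prdx1, -0.09 for Prdx2, -0.01 for mitochondrial Prdx3 and -0.08 for Prdx4, the peroxiredoxin of the endoplasmic reticulum, with adjusted p from 0.689 to 0.943 in limma. Their intervals lay between -0.35 and 0.18. A second, dimmer probe set differed by -0.09 for Prdx1 and by -0.12 for Prdx2.

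The glutathione peroxidase family is named for its classical members, which reduce peroxides at the expense of glutathione. Of its 5 genes here, 1 had a positive difference and 4 a negative one, and 0 passed the threshold. Gpx8, a peroxidase of the endoplasmic reticulum membrane, was at 11.20, 11.25, 11.52 and 11.03 in WT and at 10.75, 10.76, 10.90 and 10.58 in Sel1l-/- mice. Every Sel1l-/- array was below every WT array, and the array numbered 3 was the highest and that numbered 4 the lowest in each group. The difference was -0.50 ± 0.11 (SE) or 1.42-fold, from 11.25 ± 0.21 to 10.75 ± 0.13 (SD, n = 4), just outside the threshold (limma, adjusted p = 0.0697). With the replicate number as a block it passed (0.0189), as it did without WT 4 (0.0464), with array weights (0.0400) and with the dimmer 50% of genes left out (0.0447). Gpx8 was lower within letter F (-0.28) and within numbers 5, 7 and 9 (-0.22, -0.58 and -0.77). Gpx7, the other peroxidase of the endoplasmic reticulum, differed by -0.04 (adjusted p = 0.856).

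Gpx4, which reduces lipid hydroperoxides in membranes, was at 11.27, 11.29, 11.48 and 11.28 in WT and at 11.86, 11.73, 11.71 and 11.33 in Sel1l-/- mice. Sel1l-/- 4 alone fell inside the WT range, below WT 3. The difference was 0.33 ± 0.11 (SE) or 1.26-fold (limma, adjusted p = 0.223), it passed without Sel1l-/- 4 (0.0392), and a second probe set of Gpx4 differed by 0.32. Gpx1, the abundant cytosolic form, was at 12.09, 12.17, 12.37 and 12.28 in WT and at 11.77, 12.03, 12.00 and 12.27 in Sel1l-/- mice. These ranges overlapped through Sel1l-/- 4, and the difference was -0.21 ± 0.11 (SE), with an interval of -0.46 to 0.04 (adjusted p = 0.427). Gpx3, the secreted form made by adipose tissue, differed by -0.04 (adjusted p = 0.959).

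Glutathione transferases, which attach glutathione to electrophiles, held the largest differences and the largest spread between mice, and 0 of 8 passed the threshold. Mgst3, a microsomal transferase of the membrane, was at 9.86, 9.70, 10.28 and 8.89 in WT and at 9.002, 8.90, 8.91 and 8.56 in Sel1l-/- mice. WT 1, WT 2 and WT 3 stood above all Sel1l-/- arrays, and WT 4 lay among the Sel1l-/- values. The difference was -0.84 ± 0.26 (SE) or 1.79-fold, from 9.68 ± 0.58 to 8.84 ± 0.20 (SD, n = 4), with an adjusted p of 0.174 in limma. It passed with the replicate number as a block (0.0469) and without WT 4 (0.0241), while within letter F, which sets WT 4 against Sel1l-/- 1 and 2, the difference of Mgst3 was 0.06.

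Gstt1, a theta-class transferase, was at 11.43, 10.93, 11.59 and 10.14 in WT and at 10.59, 10.39, 10.33 and 9.91 in Sel1l-/- mice. Again WT 4 was the WT array inside the Sel1l-/- range. The difference was -0.72 ± 0.30 (SE) or 1.65-fold, with an interval of -1.40 to -0.03 (limma, adjusted p = 0.312), and 0.35 within letter F for Gstt1. The 2 alpha-class transferases had the widest intervals of the members. Gsta4 ran from 7.82 to 9.53 in WT and from 8.46 to 9.60 in Sel1l-/- mice (difference 0.49, adjusted p = 0.634), and Gsta3 from 8.66 to 10.11 and from 8.23 to 9.85 (difference -0.34, adjusted p = 0.756). Mgst1, Gstm1, Gstm2 and Gsto1 differed by -0.15, 0.00, -0.05 and 0.08 (adjusted p of at least 0.491).

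The transferases also shared a pattern across mice. In 5 of the 8 (62.5%), Gsta3, Gsta4, Gstt1, Mgst1 and Mgst3, the array numbered 4 was the lowest of both groups. That was so for 12 of the 40 members (30%) and for 16.9% of all genes. Array 4 was the highest of both groups for 7 members (17.5%, against 12.6% of all genes), namely Hmox1, Srxn1, Gclm, Txnrd1, Prdx1, Prdx2 and Ftl1. Of the 12 macrophage markers, 7 were highest in array 4 of both groups and 1, Cd163, was lowest there. The macrophage list averaged 8.86, 9.45, 8.85 and 9.42 in WT and 9.08, 9.41, 9.35 and 9.75 in Sel1l-/- mice, with 0 of 12 called and 10 of 12 positive. Its summed level on the log2 scale ran from 13.75 to 14.34 in WT and from 13.93 to 14.65 in Sel1l-/- mice. The adipocyte list, with 0 of 9 called and 9 of 9 negative, averaged 12.55, 12.42, 12.58 and 12.34 in WT and 12.34, 12.28, 12.33 and 11.86 in Sel1l-/- mice. Its summed level ran from 15.66 to 15.90 and from 15.36 to 15.71. Differences of the 9 adipocyte genes ran from -1.02 to -0.04, with a median of -0.11. The mesothelial list averaged 10.14, 9.73, 10.41 and 9.50 in WT and 9.56, 9.64, 9.82 and 9.12 in Sel1l-/- mice. Of its 6 genes, 0 were called and 6 were negative. The endothelial list averaged 10.23 to 10.46 in WT and 9.73 to 10.07 in Sel1l-/- mice, with 7 of 7 negative and 1, Pecam1, called lower. Median differences were -0.37 for the mesothelial and -0.38 for the endothelial list. Of all genes, 48.8% had a positive difference and 0.685% were called lower. No measured marker of macrophages or adipocytes had a group mean below the lower quartile of its arrays, and the part of these cells in the members' differences was not tested.

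**Figure D4:**
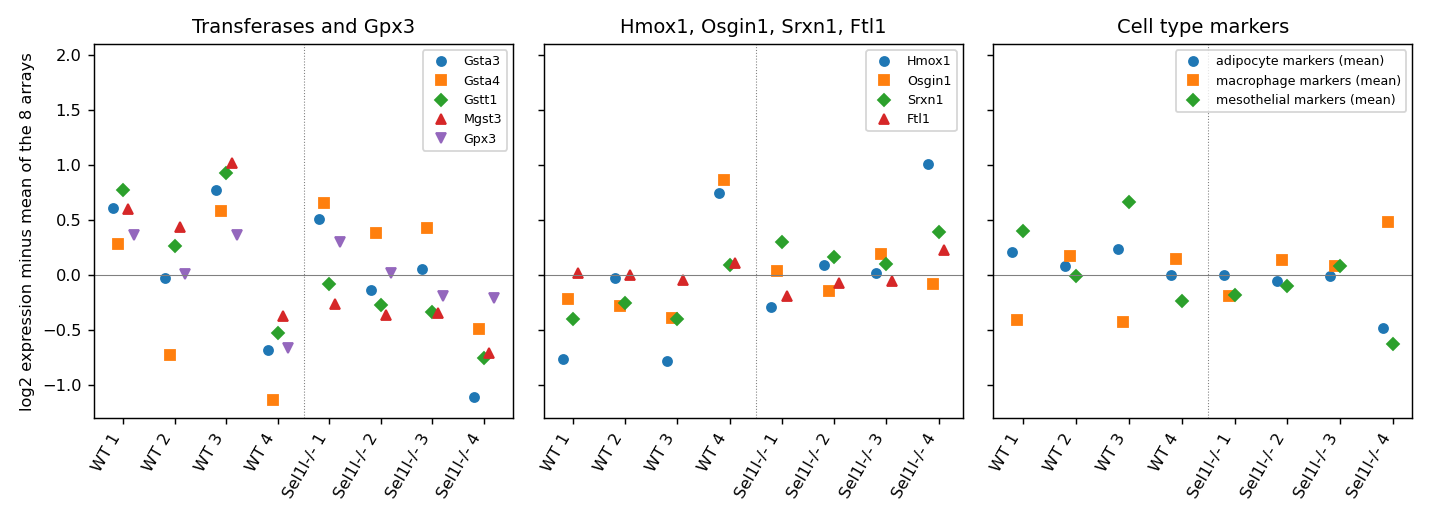
Log2 expression minus the mean of the 8 arrays (y axis) in each array (x axis) for 4 transferases and Gpx3 (left), for Hmox1, Osgin1, Srxn1 and Ftl1 (middle) and for the mean of 3 cell type marker lists (right); each symbol is 1 gene or list in 1 array. Gsta3, Gsta4, Gstt1 and Mgst3 are lowest in array 4 of both groups, where Hmox1 is highest and the adipocyte and mesothelial means are lowest.

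The ferritin chains, which store iron, differed by -0.04 for Ftl1 and 0.03 for Fth1 (limma, adjusted p = 0.879 and 0.819). A further 4 probe sets that Ftl1 shares with Mir692-1 differed by -0.01 to -0.00. The interval was -0.25 to 0.17 for Ftl1 and -0.08 to 0.14 for Fth1.

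Around the members, 106 of 119 genes listed for the same pathway were measured, of which 2 were higher, 1 was lower and 103 did not pass the threshold, with a median difference of 0.04. These shares were 1.89% higher and 0.943% lower, against 1.04% and 0.685% of all genes. The smallest p was that of Sqstm1, which encodes p62, the autophagy receptor that sequesters KEAP1 and is itself an NRF2 target. Sqstm1 was at 11.81, 11.80, 11.76 and 11.95 in WT and at 12.38, 12.27, 12.28 and 12.27 in Sel1l-/- mice. The groups stood well apart, with little spread within either. Sqstm1 rose from 11.83 ± 0.08 to 12.30 ± 0.05 (SD, n = 4), a difference of 0.47 ± 0.06 (SE) or 1.38-fold (limma, adjusted p = 0.0107), and kept the call in all 8 fits without 1 array (up to 0.0482). It was lost with a block for the mouse code's letter or number (0.281 and 0.0790), where the difference was 0.37 within letter F and 0.40, 0.53 and 0.51 within numbers 5, 7 and 9.

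Of the 16 measured partners and regulators of NRF2, Sqstm1 was the 1 gene past the threshold. Of the 16, 12 (75%) had a positive difference, against 48.8% of all genes, with a median of 0.12. Dpp3, a peptidase that also binds KEAP1, had the next smallest p of these, with a difference of 0.26 (limma, adjusted p = 0.0697). Nfe2l1 differed by 0.28, with an interval of 0.07 to 0.48 (limma, adjusted p = 0.186), and passed in 3 of the 19 alternative fits. The small MAF partners Mafg, Maff and Mafk differed by 0.20, 0.29 and 0.26, and Bach1, a repressor at the same elements, by -0.11 (adjusted p of at least 0.331 for each).

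Chac1, which degrades glutathione in the cytosol and is an ATF4 target, was at 7.86, 7.80, 8.17 and 7.51 in WT and at 8.93, 8.48, 9.05 and 8.52 in Sel1l-/- mice. Its lowest Sel1l-/- value lay above its highest WT value. Chac1 rose by 0.91 ± 0.17 (SE) on the log2 scale or 1.88-fold (limma, adjusted p = 0.0404), and kept the call in 2 of 8 fits without 1 array (up to 0.114). It was lost with the arrays centred (0.0511) and with the letter or number as a block (0.226 and 0.180). The call of Chac1 was also lost without both arrays numbered 4, a setting chosen after seeing the data. Slc7a11, the cystine carrier of system xc-, which is a target of NRF2 and of ATF4, was at 5.08, 5.20, 4.70 and 5.77 in WT and at 5.05, 5.66, 5.45 and 6.59 in Sel1l-/- mice. Array 4 was again the highest of each group, and the difference of 0.50 had an interval of -0.26 to 1.26 (adjusted p = 0.544). Without Sel1l-/- 4 the difference of Slc7a11 was 0.20, and within letter F it was -0.42.

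Duox1, an NADPH oxidase, was at 5.79, 6.04, 5.75 and 6.09 in WT and at 5.51, 5.46, 5.44 and 5.31 in Sel1l-/- mice, near or below the array medians. The groups did not overlap. Duox1 fell by 0.49 on the log2 scale (SE 0.09, limma, adjusted p = 0.0430), and lost the call in all 8 fits without 1 array (0.0522 to 0.127) and with the replicate number as a block (0.0544). The 8 measured genes of NADPH supply had 0 past the threshold, with 6 positive differences and 2 negative ones. The largest in size was that of Nnt, at -0.47 with an interval of -0.85 to -0.08 (limma, adjusted p = 0.246). Nnt ran from 9.16 to 9.63 in WT and from 8.56 to 9.30 in Sel1l-/- mice, so the groups overlapped. Whether the mixed C57BL/6N and C57BL/6J background has a part in the difference of Nnt was not tested. Me1, the NADPH-producing malic enzyme, differed by -0.04 (adjusted p = 0.888). G6pdx was not analysed here. Txnip, the inhibitor of thioredoxin, differed by -0.05 (adjusted p = 0.921). None of the other thiol enzymes, glutathione peroxidases and transferases, heme and iron genes or carbonyl and conjugation enzymes passed in limma (0 of 13, 0 of 17, 0 of 9 and 0 of 19), with 2, 2, 1 and 5 at an unadjusted p of 0.05, where 7.15% of all genes were higher and 7.85% lower.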

How the data were processed

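Per the labels' protocols, total RNA was made into whole-transcript cDNA and hybridised to 1-colour arrays, 1 per mouse. The deposited values, per the submitters' processing notes, come from RMA, which corrects background, normalizes by quantiles and summarizes probes on a log2 scale; its version and the array annotation's build are not given in the sources used here. RMA aligns the arrays' distributions, so a shift of most genes in 1 direction would be largely removed, and differences of dim probe sets are compressed. A small offset remained, with array medians of 6.05 to 6.08 in WT and 6.10 to 6.14 in Sel1l-/- mice.

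Of 35556 probe sets, 21218 carried 1 gene in the platform annotation, 1881 several and 12457 none, and each gene was read from its brightest single-gene probe set. The 2 groups entered lmFit and eBayes of limma 3.58.1 (R 4.3.3), and two-sided p-values were adjusted by Benjamini-Hochberg across the 18820 genes, with calls at 0.05. The fit was tested on simulated data. Intervals are 95% and unadjusted. Promoter windows and their motif matches came from RefSeq (GRCm38.p6), with Python 3.11.15 and pandas 2.3.3, and figures from matplotlib 3.10.9. The number of arrays, 4 a group, limits the precision.

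Members, wider lists and tests were chosen with earlier results of these data known. Values were to be given per array for members past the threshold, for 9 named regulators and targets and for the 8 other members with the smallest p, and for wider-list genes past the threshold and 5 more. Dpp3, Nfe2l1, the small MAF genes, Bach1, Nnt, Osgin1, Gsta3, Gsta4, Cd163 and Pecam1 were added after their values were seen. Alternatives were centring, blocks, filters on dim genes, the choice of probe set, limma's trend and array weights, and leaving out arrays.

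In the titles each group's mice carry the numbers 1 to 4. Same-numbered mice deviated together over all genes (correlations 0.518, 0.107, 0.363 and 0.524), so a fit with this number as a block is given beside the results it changes, though no label says what the numbers share. The calls, intervals and standard errors of the report come from the fit without a block. The mice numbered 2 correlated weakly. WT 2 correlated better with Sel1l-/- 4 (0.327), and WT 3 correlated with Sel1l-/- 1 at 0.328, which leaves the pairing unproven. Mouse codes also hold a letter (E, F or G) and a number (5, 7 or 9) of unstated meaning. E holds WT 1, 2 and 3, F holds WT 4 and Sel1l-/- 1 and 2, and G holds Sel1l-/- 3 and 4.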

Additional observations from a re-analysis of the deposited data

Results flagged for a closer look

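In a search of the 80 groups formed by 40 members and 2 genotypes, 5 held an array far from the other 3 by Dixon's criterion, where chance flags about 1 in 20 groups. Osgin1 was at 8.04 in WT 4, with the nearest other WT array at 6.96. Gpx4 was at 11.48 in WT 3, with the nearest at 11.29. Ugdh was at 9.999 in Sel1l-/- 1, with the nearest at 10.21. Cat was at 12.52 and Gstm1 at 12.04 in Sel1l-/- 4, with the nearest at 12.66 and 12.41.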

How the results depend on the processing

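Among the members, 0 were higher and 1 was lower, in the wider list 2 and 1, and over all genes 195 and 129. With the arrays centred on their medians, 1 wider-list gene was higher, and of all genes 119 were higher and 154 lower. With the replicate number as a block, 1 member was higher and 2 were lower (Srxn1, Gpx8 and Mgst3, with Nqo1 lost), and 358 and 367 of all genes. With the mouse code's letter as a block, 0 members were lower, 0 and 0 wider-list genes were called, 7 and 13 of all genes, and Sel1l differed by -0.98 (adjusted p = 0.151). With its number as a block, 0 members were lower, 0 and 0 wider-list genes were called, 8 and 3 of all genes, and Sel1l differed by -0.80 (adjusted p = 0.0813). Leaving out the dimmer 50% of genes, Nqo1 and Duox1 among them, left 0 wider-list genes lower. With limma's trend and robust settings 0 members and 0 wider-list genes were lower. With array weights 2 members were lower, and 347 and 219 of all genes were called. Without both arrays numbered 4, chosen after seeing the data, 2 members (Srxn1 and Ephx1) and 4 wider-list genes, not Chac1, were higher. In that setting 1 member (Mgst3, not Nqo1) and 0 wider-list genes were lower. Leaving out 1 array in turn gave 0 to 1 members higher and 0 to 2 lower, 1 to 3 wider-list genes higher and 0 lower in each fit, and 66 to 244 of all genes higher and 31 to 140 lower. Fewer arrays and fewer degrees of freedom enter the fits without arrays and with code blocks. Causes of the other shifts were not tested. Mgst3 and Ephx1, each called under other settings, turned to 0.06 and -0.04 with the letter as a block, and Cth, called without both arrays numbered 4, turned to -0.40. The members' median difference ran from -0.07 (centred arrays) to 0.03 (letter as a block).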
